A study of Mus musculus with 40 samples.

Results

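Fragments of open chromatin that had been carried by a reporter through blood cell differentiation were examined at 8 gene loci: Mef2a, Mef2c and Mef2d, which encode MEF2 transcription factors, Hdac4, Hdac5, Hdac7 and Hdac9, which encode the class IIa histone deacetylases, and C130071C03Rik, a long non-coding RNA gene downstream of Mef2c. A fragment was counted at a locus when its centre lay in the RefSeq gene body or within 25 kb of it (mm10, the same assembly as GRCm38). This gave 516 of 458486 fragments, 398 of them different, and merging those that overlapped gave 67 of 75060 regions. The loci were chosen with a result at C130071C03Rik in view, so its positive and Negative fragments are given as a description. The fragments closest to the 25 kb limit lay 20.9 kb outside the Hdac7 gene body on the inner side and 27.2 kb outside the Hdac5 gene body on the outer side.

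The fragments had been cut by Tn5 transposase from mouse cells at 5 stages, cloned upstream of a HSP68 minimal promoter and a Venus-YFP reporter, and inserted at the HPRT locus of HM-1 mouse embryonic stem cells (129/ola). These cells carry a non-functional HPRT gene, which the insertion repairs, so all groups share this single integration site and HAT selection. The pool was differentiated in serum from embryonic stem cells (ES) through FLK1+ haemangioblasts (HB), haemogenic endothelium before (HE1, KIT+ TIE2+ CD41-) and after (HE2, KIT+ TIE2+ CD41+) the gain of CD41, to blood progenitors (HP, KIT+ TIE2- CD41+). Cells of each stage were sorted by YFP into Negative, Low, Medium and High gates, in 2 replicates, which gave 20 groups and 40 libraries. The Negative gate had been set on a line with the minimal promoter alone, and the Low, Medium and High fragments of a sort, that is of 1 stage and replicate, are called positive here. Each list holds every fragment once per library with no read count, so a value counts different fragments and not cells or molecules.

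MEF2 proteins bind an A/T-rich motif and activate genes of muscle, vessel and blood cells. Class IIa histone deacetylases bind to MEF2 and repress its targets, until calcium- and stress-responsive kinases phosphorylate them and they leave the nucleus. MEF2C is known for its part in heart, endothelial, lymphoid and megakaryocytic development, and HDAC7 for its expression in endothelium and lymphocytes. C130071C03Rik is the host transcript of the microRNA gene Mir9-2, which lies on chromosome 13 from 83738814 to 83738885.

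The 40 libraries differed widely in depth. Replicate 1 held 361181 fragments, with 4869 to 51146 in a library, and replicate 2 held 97305, with 654 to 31915. The 8 loci took 10.8 of every 10,000 fragments in replicate 1 and 12.9 in replicate 2, and 4 libraries of replicate 2 held none of them. The HE1 Negative library of replicate 1 shared 69.8% of its 41374 fragments with the HE1 Medium library of that sort, and 43 of its 58 fragments at the 8 loci. Counting fragments of 1 library whose ends both lay within 5 bp of each other once removed 15.1% of all fragments in replicate 2 and 2.84% in replicate 1. At the 8 loci it removed 25.4% and 3.59%.

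Most fragments came from Hdac5, Mef2d and Hdac7, with 234, 104 and 95. Hdac4 gave 22, C130071C03Rik 21, Hdac9 19, Mef2c 11 and Mef2a 10. Per length of the locus, the number ran from 2.07 fragments per 100 kb at Hdac9 to 277 at Hdac5. The median GC content of the different fragments ran from 37.3% at Mef2c to 61.5% at Hdac5 and was 59.1% over the 8 loci, beside 53.9% in the series. The part that base composition played in these numbers was not tested.

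Fragments of the 2 replicates were spread differently over the loci. Hdac5 gave 226 fragments in replicate 1 (6.26 per 10,000 fragments, 95% Poisson interval 5.47 to 7.13) and 8 in replicate 2 (0.822, interval 0.355 to 1.62), so the intervals did not overlap. At Hdac4, Mef2c and C130071C03Rik the order was reversed: all 22, 11 and 21 fragments came from replicate 2. For a count of 0 in replicate 1 the upper limit of the same Poisson interval is 0.102 per 10,000 fragments, against 2.26, 1.13 and 2.16 measured in replicate 2. Hdac9 also had more in replicate 2, with 14 fragments against 5. Its intervals, 0.787 to 2.41 and 0.0449 to 0.323 per 10,000, did not overlap either. Mef2d, with 85 and 19 fragments (2.35 and 1.95 per 10,000), and Hdac7, with 66 and 29 (1.83 and 2.98), had overlapping intervals. Of all 13041 gene loci with at least 20 fragments, 165 (1.27%) held none from replicate 1, and of the 17787 with at least 10, the class that also takes in Mef2c, 871 (4.90%) held none. The intervals cover counting error only and treat every counted fragment as independent, though the same or near-identical ones recur. The 11 at Mef2c were 4 different fragments. Counting near-identical ones of a library once left 10 of the 21 at C130071C03Rik. The intervals may therefore be too narrow. How many of all gene loci have intervals that do not overlap was not counted, so no such difference is read as particular to these loci.

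**Figure D1:**
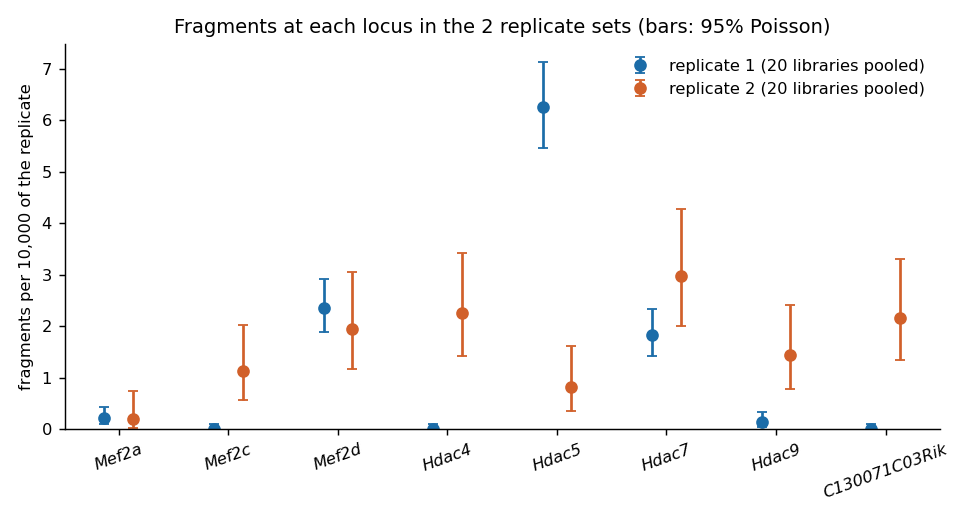
Fragments at each of the 8 loci per 10,000 fragments of the replicate, with the 20 libraries of a replicate pooled, as points with 95% Poisson intervals. Hdac5 sits at 6.26 in replicate 1 and 0.822 in replicate 2, while Hdac4, Mef2c and C130071C03Rik have no fragment in replicate 1.

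None of the 516 fragments had its centre within 1500 bp of the start of a curated RefSeq transcript. In the whole series only 8431 of 458486 fragments did, so this is not read as particular to these loci. Of the 67 regions, 52 were centred in introns, 13 between genes and 2 in exons. The nearest start was that of the locus gene itself for 218 of the 516 fragments (42.2%). This was so for 101 of 104 fragments at Mef2d and 21 of 21 at C130071C03Rik, but for 1 of 234 at Hdac5, where 110 lay nearest to Mir8101. At Hdac7, 22 fragments lay nearest to Rapgef3, at Hdac9 7 nearest to Twist1 and at Hdac4 4 nearest to Twist2. Regions seen in both replicates were 6 of 67 (8.96%), beside 9.28% of all regions in the series.

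The question put to the gates was whether fragments of a locus were positive more often than the positive share of all fragments of the sort predicts. Over the 8 loci 386 positive and 119 Negative fragments were counted per sort, a positive share of 76.4%, beside 76.8% in the series. It was 76.2% beside 78.2% in replicate 1 and 77.3% beside 71.1% in replicate 2. Of the class IIa deacetylase loci with enough fragments, Hdac5 and Hdac7 lay close to the series share of 76.8%. Hdac4, with fragments from replicate 2 alone, lay above it, with a wide interval that took it in. Hdac5 had 173 positive and 58 Negative fragments (74.9%, 95% Wilson interval 68.9 to 80.0), Hdac7 had 71 and 22 (76.3%, interval 66.8 to 83.8) and Hdac4 17 and 3 (85.0%, interval 64.0 to 94.8). Mef2d had 80 and 21 (79.2%, interval 70.3 to 86.0). A Cochran-Mantel-Haenszel test stratified by sort was run on 13041 gene loci, and the positive fragments observed over those expected came to 0.974 at Hdac5, 1.03 at Hdac7, 1.11 at Hdac4 and 1.01 at Mef2d. None of these 4 was called (adjusted p = 1 each). Of the 5 loci tested, the C130071C03Rik locus was the 1 called, beside 0.0997% of all gene loci called in either direction and 0.0383% with more positive fragments. Its call is the result the loci were chosen on, and nothing is read from it. With the replicates of a stage pooled, that is without the replicate as a block, it was not called (adjusted p = 0.998), and the number of gene loci called rose from 13 to 24.

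Mef2a, Mef2c and Hdac9 were below the minimum of 20 fragments and have values only. Hdac9 had 15 positive and 4 Negative fragments and Mef2a 7 and 3. Mef2c was the 1 locus with more Negative than positive fragments, 7 against 4, with 7.45 positive expected.

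**Figure D2:**
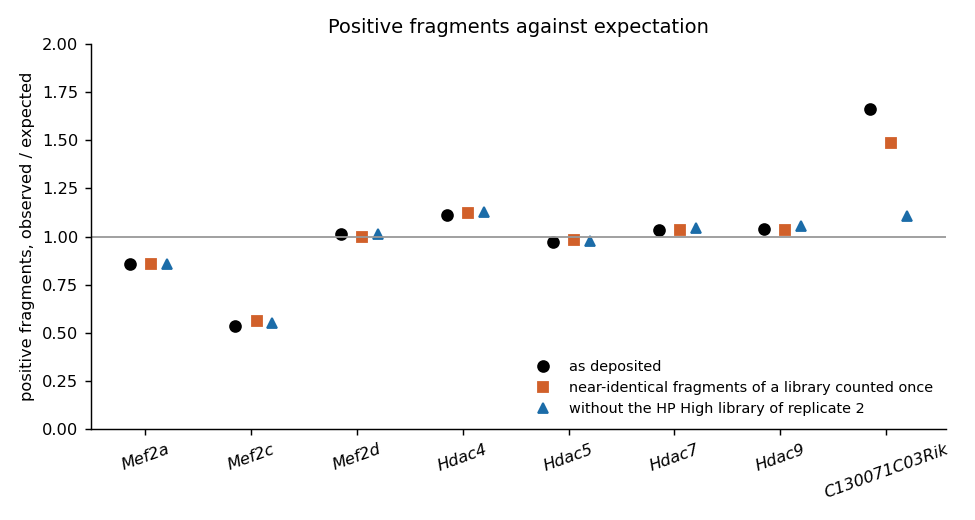
Positive fragments observed over those expected at each locus, for the fragments as deposited (circles), with near-identical fragments of a library counted once (squares) and without the HP High library of replicate 2 (triangles); the line marks 1. C130071C03Rik falls from 1.66 to 1.49 and 1.11, Mef2c stays under 1, and the other loci stay between 0.855 and 1.13.

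The C130071C03Rik region covered chr13:83730461-83730941, in an intron of the transcript and 1792 bp upstream of the nearest annotated start. It held 20 fragments, all from replicate 2 and none from a Negative library. They came from 5 libraries, with 9 in HP High, 7 in HE1 Low, 2 in HB Low and 1 each in HB Medium and ES Medium. Counted per sort there were 19 positive fragments, where 11.2 were expected. The fragments fell into sets with nearly the same ends. All 9 fragments of HP High started between 83730461 and 83730475 and ended at 83730669 or 83730670. Another 10 fragments, from the other 4 libraries, started between 83730598 and 83730611 and ended at 83730940 or 83730941, and the last started at 83730598 and ended at 83730746. The sets overlapped in 1 short stretch, shown in capitals in the centre of the region because it is the part that both hold (GRCm38, plus strand, chr13:83730551-83730850):
C130071C03Rik region: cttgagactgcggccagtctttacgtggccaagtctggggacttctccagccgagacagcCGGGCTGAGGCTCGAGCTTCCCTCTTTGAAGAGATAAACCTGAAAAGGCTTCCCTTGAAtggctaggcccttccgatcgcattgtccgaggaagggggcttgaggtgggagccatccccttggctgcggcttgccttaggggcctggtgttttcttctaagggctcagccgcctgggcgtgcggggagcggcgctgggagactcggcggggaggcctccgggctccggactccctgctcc

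With fragments of 1 library that had both ends within 5 bp counted once, 9 of the 20 fragments were left, 8 of them positive per sort with 5.12 expected, and the region was below the minimum for a test. Without the HP High library of replicate 2, 10 positive fragments remained where 8.85 were expected, a ratio of 1.13 in place of 1.70. The call was also lost when the ES, HB, HE1 or HP sort of replicate 2 was left out, which took the region below the minimum of 20 fragments; the ratio was then 1.73, 1.78, 2.56 and 1.13. Without the replicate as a block the region was not called (adjusted p = 0.724), and the number of regions called rose from 12 to 30. None of the 8 motifs searched matched the central 300 bp.

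**Figure D3:**
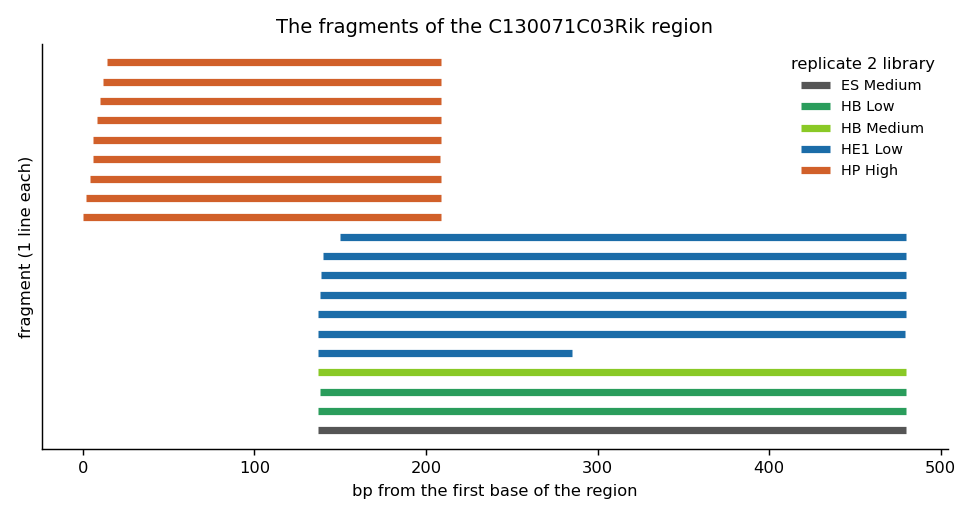
The 20 fragments of the C130071C03Rik region, 1 line each, by distance in bp from the first base of the region and coloured by library, all of replicate 2. The right ends of the 9 fragments of HP High lie within 1 bp, and so do those of 10 of the other 11, whose left ends lie close together as well.

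Of the 67 regions, 8 held at least 20 fragments and were tested, among 5742 regions in all. The C130071C03Rik region was the 1 called (adjusted p = 0.00909). Of all regions, 0.209% were called in either direction and 0.0174% with more positive fragments. The C130071C03Rik region was known to stand out when the loci were chosen, so nothing is read from its call. The other 7 had an adjusted p of 1. These 7 were 3 regions at Hdac5, 2 at Hdac7 and 2 at Mef2d, with observed over expected positive fragments between 0.945 and 1.07.

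Hdac5 encodes a signal-responsive deacetylase that shuttles between nucleus and cytoplasm. The region with the most fragments of all 67, chr11:102218433-102219491, lay in an intron by curated RefSeq transcripts. It held 107 fragments, 106 of them from replicate 1, in 21 libraries, which included all 20 of replicate 1. Counted per sort, 76 were positive and 28 Negative, with 80.4 positive expected. In contrast to the C130071C03Rik region its fragments fell into 52 sets of similar ends (15 bp), and the largest set held 7 fragments. A GENCODE transcript of Hdac5 starts inside the region, at 102218929 on the minus strand, although no curated RefSeq transcript does. The central window of the region held a match to the E-box CAGCTG, at 102218940 to 102218945. A match to the MEF2 consensus lay 54 bp upstream of the GENCODE start, at 102218983 to 102218992. The fragment seen in most libraries of the region holds this match, in capitals, and was found in ES Medium, HE1 Medium, HE1 Negative, HE2 High and HP Medium of replicate 1 and in HB High of replicate 2 (GRCm38, plus strand, chr11:102218966-102219084):
Hdac5 intron fragment: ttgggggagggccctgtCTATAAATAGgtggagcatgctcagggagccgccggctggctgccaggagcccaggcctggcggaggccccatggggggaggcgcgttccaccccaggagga

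The match was held whole by 45 of the 107 fragments, in 18 libraries. Counted per sort, 30 of these were positive and 15 Negative (66.7% positive), against 46 and 13 (78.0%) for the fragments of the region without it. The fragments within 1 region overlap and share their source, so these shares are given without a test. Of the 34 fragments at Hdac5 in the HE1 Negative library of replicate 1, 26 were also in HE1 Medium. With all fragments found in both classes of a sort left out, Hdac5 had 0.984 of the positive fragments expected.

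**Figure D4:**
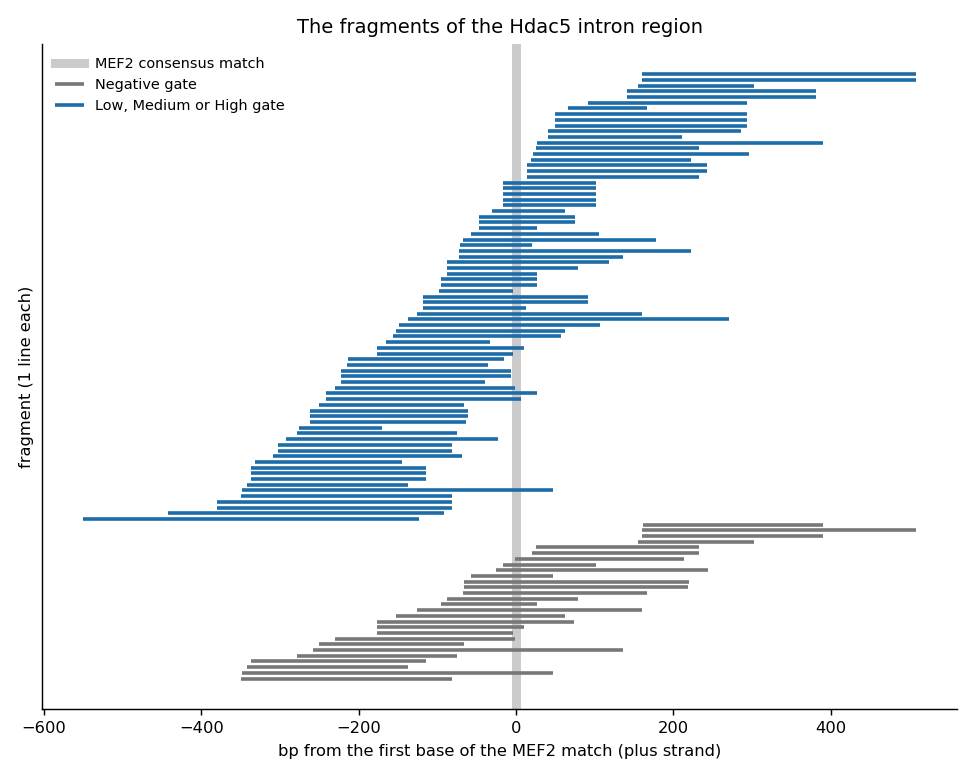
The 107 fragments of the Hdac5 intron region, 1 line each, by distance in bp from the first base of the MEF2 match (grey band), from the Negative gate (grey) and from the Low, Medium and High gates (blue). Fragments of both classes lie on both sides of the match and across it, with many different ends.

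A region upstream of Hdac5, chr11:102244699-102245573, held 86 fragments, 67 positive and 19 Negative per sort with 67.0 positive expected. Its nearest start was that of Hrob, 3746 bp away. Its central window holds a match to the AP-1 motif TGANTCA, in capitals (GRCm38, plus strand, chr11:102244986-102245285):
Hdac5 upstream window: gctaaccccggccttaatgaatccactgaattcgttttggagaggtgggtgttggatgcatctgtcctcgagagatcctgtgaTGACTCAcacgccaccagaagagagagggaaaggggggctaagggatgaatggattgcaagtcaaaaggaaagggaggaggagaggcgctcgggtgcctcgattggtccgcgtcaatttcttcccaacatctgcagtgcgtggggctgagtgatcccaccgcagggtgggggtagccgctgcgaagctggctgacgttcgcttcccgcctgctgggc

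The AP-1 match was held whole by 26 fragments of this region, all from replicate 1. Of these 18 were positive and 8 Negative, against 49 and 11 for the fragments without it. The same motif is found in either orientation in 13.0% of all 75043 windows of 300 bp around region centres and in 7 of the 67 windows here (10.4%). The third Hdac5 region with at least 20 fragments, chr11:102208763-102209332, was intronic and held 27 fragments. All were of replicate 1, from 7 libraries of HE1, HE2 and HP. Per sort, 20 were positive and 7 Negative, with 20.1 positive expected. Its central window held matches to the TEAD motif GGAATG and the RUNX motif TGTGGT.

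Mef2d, a broadly expressed MEF2 gene, had 2 regions with at least 20 fragments. The first, chr3:88149713-88151069, lay in an intron 8019 bp from the gene start and held 42 fragments in 20 libraries, 33 from replicate 1 and 9 from replicate 2. Of these 30 were positive and 10 Negative per sort, with 31.5 positive expected. It was the 1 region among the 67 with 2 matches to the MEF2 consensus, at 88150199 to 88150208 and 88150222 to 88150231. Both were held by the same 9 fragments, 7 of them from replicate 2. In the series, 76 of 75043 regions (0.101%) had 2 or more matches, and so did 3 of the 666 regions of at least 1000 bp (0.450%). The Mef2d region spans 1357 bp. The fragment found in most libraries, chr3:88149987-88150441, was in ES Medium, HB Low, HB Medium, HB Negative and HE1 Low of replicate 2 and in HE2 Medium of replicate 1, and its middle 300 bases are shown with both matches in capitals (GRCm38, plus strand, chr3:88150064-88150363):
Mef2d fragment: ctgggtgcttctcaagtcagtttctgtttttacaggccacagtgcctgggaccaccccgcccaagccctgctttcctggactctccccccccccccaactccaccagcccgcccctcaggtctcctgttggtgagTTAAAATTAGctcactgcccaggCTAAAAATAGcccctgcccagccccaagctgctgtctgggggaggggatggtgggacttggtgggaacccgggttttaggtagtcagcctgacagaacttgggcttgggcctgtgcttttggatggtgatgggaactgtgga

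Counted per sort, the fragments with both matches were 7 positive and 1 Negative, against 23 and 9 for the others of the region. The second Mef2d region, chr3:88157801-88158383, overlapped an exon and held 39 fragments, of which 31 were positive and 8 Negative with 30.5 positive expected. The largest of its 17 sets of similar ends held 9 fragments, with starts from 88158021 to 88158053 and ends from 88158140 to 88158149. These came from 8 libraries of 6 sorts and both replicates, none of them Negative. A set of 5 fragments beside it, with starts from 88158021 to 88158030 and ends at 88158163 or 88158164, held 1 Negative fragment.

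Hdac7 gave 18 regions, more than any other locus. Its largest, chr15:97824900-97826225, lay in an intron 5932 bp from the gene start and held 25 fragments, 19 positive and 6 Negative per sort with 17.7 positive expected. Its central window of 300 bp held no MEF2 or AP-1 match, but TEAD matches at 97825633 to 97825638 and 97825664 to 97825669. The stretch shown was instead placed around a match to the MEF2 consensus outside that window. It also holds a match to the AP-1 motif, with both in capitals (GRCm38, plus strand, chr15:97825131-97825430):
Hdac7 stretch: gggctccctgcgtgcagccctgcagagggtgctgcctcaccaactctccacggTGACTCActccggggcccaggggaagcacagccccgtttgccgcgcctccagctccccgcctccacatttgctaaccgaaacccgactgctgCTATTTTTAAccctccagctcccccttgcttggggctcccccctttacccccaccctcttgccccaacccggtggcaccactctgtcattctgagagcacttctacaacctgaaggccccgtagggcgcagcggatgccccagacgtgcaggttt

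The MEF2 match was held by 4 fragments of replicate 1, all positive, against 15 positive and 6 Negative for the others of the region. The other Hdac7 region with at least 20 fragments, chr15:97772894-97773599, lay 5581 bp upstream of Rapgef3 and held 21 fragments of replicate 1 in 6 libraries of HE1 and HE2. Of these 17 were positive and 4 Negative, with 16.0 positive expected. Its central window held TEAD matches at 97773265 to 97773270 and 97773297 to 97773302.

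Hdac9 is the longest of the 8 genes, 870 kb, and has been described as a target of MEF2. Its region with most positive fragments, chr12:34332848-34333288, held 5 fragments of replicate 2, of which 4 from HE1 Low and ES Medium had nearly the same ends and 1 was from HP Negative. Its first 300 bases hold a match to the MEF2 consensus and one to the E-box CAGCTG, both in capitals (GRCm38, plus strand, chr12:34332848-34333147):
Hdac9 stretch: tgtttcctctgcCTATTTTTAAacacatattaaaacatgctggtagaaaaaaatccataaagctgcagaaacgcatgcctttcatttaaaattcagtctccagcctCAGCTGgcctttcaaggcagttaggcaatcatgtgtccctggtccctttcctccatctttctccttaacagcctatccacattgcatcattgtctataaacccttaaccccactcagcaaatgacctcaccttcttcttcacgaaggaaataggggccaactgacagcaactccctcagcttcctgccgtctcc

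Over the whole span of a region, a MEF2 match was found in 6 of the 67 regions (8.96%), beside 2.57% of all 75043 regions. These 6 were 1 each at Hdac4, Hdac5, Hdac7 and Mef2d and 2 at Hdac9, and the largest regions of Hdac5, Hdac7 and Mef2d were among them. Wider regions hold more matches: 47 of the 666 regions of at least 1000 bp had one (7.06%), and so did all 3 of those at the 8 loci. In the windows of 300 bp around region centres, which have equal length, the count was 3 of 67 (4.48%) beside 2.75%. The search over whole spans was made after the windows had been read, and a match is a run of letters and not a measured binding site.

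The other motifs, each searched on both strands of the same windows, gave these counts. RUNX (TGTGGT) matched in 15 windows (22.4%, beside 23.3%), TEAD (GGAATG) in 15 (22.4%, beside 18.7%) and the E-box in 12 (17.9%, beside 19.7%). The PU.1 motif GAGGAAGT matched in 3 windows (4.48%, beside 3.59%). The motif AGATAAG, known to be bound by GATA factors, matched in 4 (5.97%, beside 5.85%). That of SOX factors, searched as ACAANGG, matched in 6 (8.96%, beside 17.3%). These shares were not tested.

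Hdac4, which encodes a deacetylase known for its part in cartilage and muscle, had 11 regions, none with 20 fragments. Its region with most positive fragments, chr1:92100101-92100477, was intronic, 80052 bp from the gene start. All 11 fragments there had nearly the same ends and came from 5 positive libraries of replicate 2, with 7 in HE1 Low and 1 each in ES Medium, HB Low, HB Medium and HP Low. Per sort this was 10 positive fragments with 8.30 expected. Counting near-identical fragments of a library once left 6. The middle 300 bases of the fragment found in all 5 libraries are shown with a TEAD match in capitals (GRCm38, plus strand, chr1:92100135-92100434):
Hdac4 fragment: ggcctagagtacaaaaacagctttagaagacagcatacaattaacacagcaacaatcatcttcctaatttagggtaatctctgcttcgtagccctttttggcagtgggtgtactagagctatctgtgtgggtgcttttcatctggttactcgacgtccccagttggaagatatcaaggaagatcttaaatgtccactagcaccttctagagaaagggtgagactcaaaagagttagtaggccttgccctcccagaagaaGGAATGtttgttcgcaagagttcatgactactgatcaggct

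At Mef2c, only 4 different fragments made up the 11 counted, all of replicate 2. The region with most positive fragments among them, chr13:83508993-83509220, lay in an intron 5073 bp from the gene start. It held 6 fragments that differed by 1 base at 1 end, with 2 each in HE1 Negative, HE1 Low and HP Negative, so the same fragment was seen in Negative and positive cells. It is A/T-rich, with a GC content of 36.1%, and held no match to any of the 8 motifs, so none of it is in capitals (GRCm38, plus strand, chr13:83508993-83509219):
Mef2c fragment: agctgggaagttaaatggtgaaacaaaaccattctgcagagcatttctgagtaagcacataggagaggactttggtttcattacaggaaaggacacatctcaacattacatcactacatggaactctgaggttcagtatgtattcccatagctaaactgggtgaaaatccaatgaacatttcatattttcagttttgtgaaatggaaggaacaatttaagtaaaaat

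Mef2a had 10 fragments, each in a single library. Its region with most positive fragments, chr7:67210558-67210817, lay outside the gene, in an intron of 1700112J16Rik, and held 4 fragments of replicate 1, 3 positive and 1 Negative.

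The stages were compared by the positive fragments of a locus per 10,000 positive fragments of the sort. The methods describe a filter on ATAC peaks of the matching stage, and whether the lists passed it is not stated. A fragment missing at a stage is therefore not read as lacking reporter activity there. Hdac5 had 4.69, 5.90, 7.65, 4.97 and 4.79 in ES, HB, HE1, HE2 and HP of replicate 1. In replicate 2 it had 1.11, 2.46, 0.575, 0 and 0. Replicate 1 was higher than replicate 2 at every stage, and HE1 was the highest stage in one replicate and not in the other. Negative fragments of Hdac5 per 10,000 Negative fragments in replicate 1 were 6.76, 10.7, 8.22, 2.37 and 4.73 in the same order.

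Mef2d had 4.33, 2.82, 2.06, 1.61 and 2.52 per 10,000 in replicate 1 and 2.22, 2.46, 2.87, 0 and 0 in replicate 2. ES was the highest stage in replicate 1 and HE1 in replicate 2. Hdac7 was the 1 locus with positive fragments in all 10 sorts, with 1.44, 1.80, 2.65, 1.75 and 0.756 in replicate 1 and 4.43, 2.46, 2.30, 2.88 and 3.84 in replicate 2. Its lowest stage in replicate 1, HP, was the next to highest in replicate 2.

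A limma moderated F test over the 5 stages, with the replicate as a block, could be run on these 3 loci, which had at least 20 positive fragments. It called no stage effect at Hdac5 (adjusted p = 0.955), Hdac7 (adjusted p = 1.000) or Mef2d (adjusted p = 0.955). The largest fitted difference was at Mef2d, where HE2 was 1.82 lower than ES on the log2 scale. This was a fitted value of -1.82 with a moderated residual SD of 0.92. HE2 of replicate 2 had no positive fragment there, and the value was -0.94 with a pseudocount of 2 and -1.18 without that sort. Over all 10932 gene loci limma called 0 (0%), and 498 had an unadjusted p under 0.05. None of the 3 loci was among those 498.

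The remaining loci have values only. C130071C03Rik had 1.11, 1.64, 2.01, 0 and 17.3 positive fragments per 10,000 in ES, HB, HE1, HE2 and HP of replicate 2, so that HP stood far above the other stages through the 9 fragments of HP High. Hdac4 had 1.11, 2.46, 3.45, 0 and 1.92. Mef2c had positive fragments in HE1 and HE2 of replicate 2 alone, 3 and 1. Hdac9 had 2, 2 and 7 positive fragments in ES, HB and HE1 of replicate 2, and 1, 2 and 1 in HE1, HE2 and HP of replicate 1. Mef2a had at most 3 positive fragments in a sort.

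**Figure D5:**
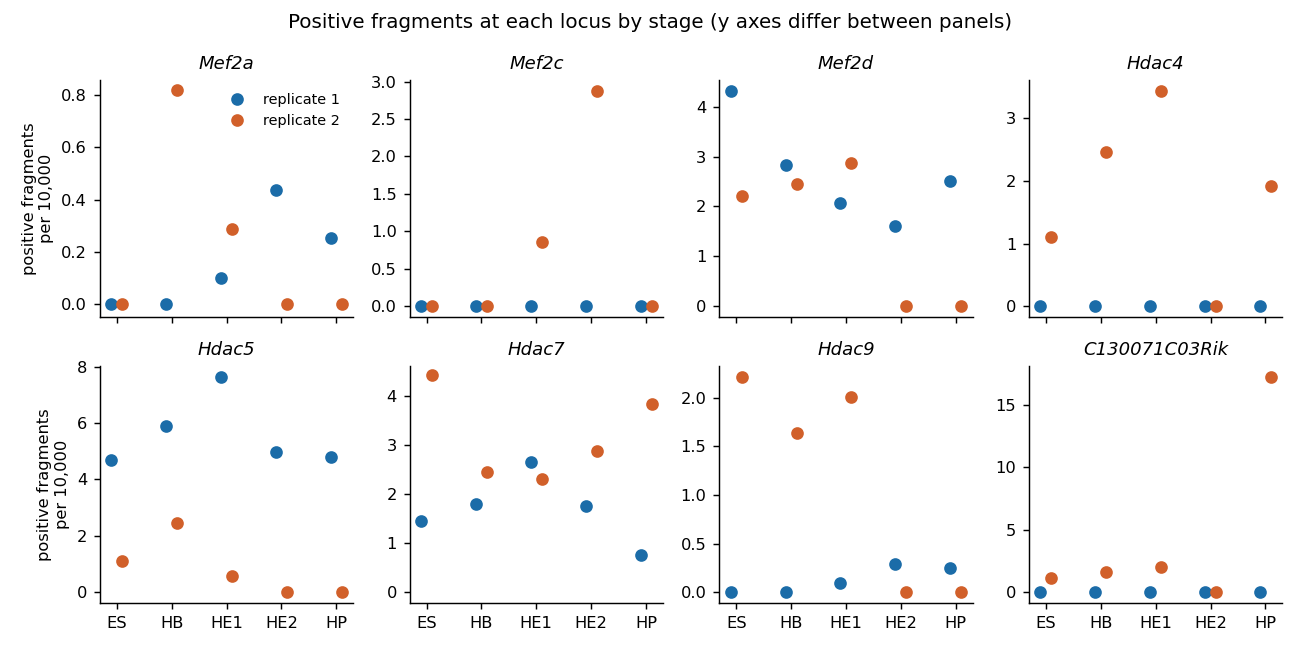
Positive fragments at each locus per 10,000 positive fragments of the sort, by stage, with 1 point for each replicate; the y axes differ between panels. Hdac5 is higher in replicate 1 at every stage, Hdac4, Mef2c and C130071C03Rik have points above 0 in replicate 2 alone, and C130071C03Rik reaches 17.3 in HP.

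By gate, the 8 loci together took 11.9, 9.75, 11.4 and 9.84 of every 10,000 fragments in the Negative, Low, Medium and High libraries of replicate 1, with overlapping 95% Poisson intervals. In replicate 2 they took 10.3, 13.5, 12.9 and 16.1, and these intervals overlapped as well. At Hdac5 in replicate 1 the Negative gate gave 7.27 (interval 5.49 to 9.44) and the High gate 5.96 (interval 4.55 to 7.68). At C130071C03Rik in replicate 2 the values were 0.380, 2.07, 1.52 and 6.30 in the Negative, Low, Medium and High gates, and all 9 fragments behind the last were the near-identical ones of HP High.

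The gene loci whose positive fragments per 10,000 followed Hdac5 most closely over the 10 sorts were Brf1, Ctif and Dock6, with Spearman correlations of 0.988, 0.985 and 0.976 among 10926 loci compared. The 10 sorts share their depth and replicate between loci, so this is a description. Other genes of the pathway, 35 in all, covered the remaining deacetylases, the NCoR co-repressors, the CaM, PKD and SIK kinases that phosphorylate class IIa deacetylases, calcineurin and known MEF2 targets such as Klf2 and Nr4a1. Of these 25 had at least 20 fragments, and none was called in either direction by the Cochran-Mantel-Haenszel test (adjusted p = 1 for all 25). Of the 20 pathway loci in the limma fit, none was called and 1 had an unadjusted p under 0.05.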

How the data were processed

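Per the methods, the authors used Trim Galore for trimming and Bowtie2 for alignment to mm10 (fragments up to 600 bp), kept mapping qualities above 40 and worked with SAMtools, bedtools and HOMER. The labels name the same tools. The methods also describe filters against a background library, on open chromatin at the matching stage and on distance from start sites. Which of them the deposited lists passed is not stated. By distance, 8431 of the 458486 fragments had their centre within 1500 bp of a curated RefSeq start, so the lists were mostly distal. The amplification before sequencing had no molecular identifiers, so near-identical fragments cannot be told from separate ones. Each of the 40 deposited lists holds coordinates of unique fragments, 1 row each, with no count, score or other value per fragment; the numbers given here are fragments per locus, region and library. Of the fragments on chromosomes, 0 ran past a chromosome end of GRCm38. The 36 fragments on scaffolds were not part of this check.

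The members and lists were chosen with earlier results of these data known. Fragments overlapping by at least 1 bp were merged into regions. Positive against Negative fragments were tested per region and per gene locus (RefSeq gene body with 25 kb on each side, at least 20 fragments) by the continuity-corrected Cochran-Mantel-Haenszel test, stratified by the 10 sorts, with Benjamini-Hochberg adjustment over all tested features (threshold 0.05). Expected positive fragments follow from the share of positive fragments in each sort. Stages were tested with limma 3.58.1 in R 4.3.3 on log2 of positive fragments per 10,000 plus 0.5, with the replicate as a block. Replicate deviations of the sorts correlated between stages (0.274 to 0.439 over 10 stage pairs), so the numbers were taken to pair the sorts. The labels do not say whether they mark separate cultures. The limma p-values come from stage differences set against the moderated residual spread of the 10 sorts after the replicate block. The sorts were weighted equally, though their positive totals ran from 3471 to 101943. The p-values of the Cochran-Mantel-Haenszel test treat fragments as independent within a sort, which near-identical ones may not be, and hold no spread between replicates. The Poisson and Wilson intervals also treat fragments as independent. Named were all 8 loci, each region with at least 20 fragments, and the region with most positive fragments of each locus. The stretches printed at Hdac4, Hdac7, Hdac9, Mef2c and Mef2d were chosen after their values were seen. Both tests were run on simulated data with counts drawn independently. These held no sets of near-identical fragments, so the runs do not show how the tests behave with such sets. Depth per library was 654 to 51146 fragments. Alternatives covered the fragment minimum, near-identical fragments, fragments in both classes, start sites, flank, pseudocount, the block and leaving out sorts and libraries. Python 3.11.15 with scipy 1.17.1 was used.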

Additional observations from a re-analysis of the deposited data

How the results depend on the processing

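The number of regions called by the Cochran-Mantel-Haenszel test, 12 as reported, was 5 with at least 50 fragments, 0 with near-identical fragments of a library collapsed (103 at an unadjusted p under 0.05) and 30 without the replicate block, and ran from 5 to 19 when a replicate, a sort or 1 library was left out. The number of gene loci called, 13, was 3 with at least 50 fragments, 0 with collapsed fragments (262 at an unadjusted p under 0.05), 24 without the replicate block, 8 with the gene body only and 27 with 100 kb on each side, and ran from 3 to 18 with parts left out. The number with a stage effect in limma, 0, was 9 with at least 50 positive fragments, and ran from 0 to 40 when a sort was left out, with the 40 reached without HE2 replicate 1. None of Hdac5, Hdac7 and Mef2d was called in any of these fits, also without the replicate block, where limma called 0 loci and 11 had an unadjusted p under 0.05. A single replicate alone left no residual degrees of freedom for limma. The call at the C130071C03Rik region was lost under 9 of 19 alternatives and that at its locus under 8 of 21, most of them because fewer fragments were left than the minimum; without the HP High library of replicate 2, an alternative added after seeing the data like that without HE1 Low, the positive fragments of the locus were 1.11 times those expected (unadjusted p = 0.665). Hdac4, Hdac5, Hdac7 and Mef2d were not called in any alternative. The low depth of replicate 2, and its 0 fragments at the 8 loci in 4 libraries, limits every comparison of stages.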
